A study of Mus musculus with 10 samples.

Results

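The miR-26 family was followed through the microRNAs (miRNAs) of small extracellular vesicles (sEVs), the nanometre-sized membrane particles that cells release. The members, taken by name from the deposited tables, were miR-26a-5p, miR-26b-5p and miR-26a-2-3p, 3 of the 721 miRNAs listed in either table. All 3 are listed in both tables. The vesicles came from C57BL/6J mice and fall into 4 groups by their titles: Exe BAT (brown adipose tissue, 3 libraries), Sed BAT (3 libraries), Exe plasma (2 libraries) and Sed plasma (2 libraries). The descriptions of the plasma libraries begin with wt, and the labels name no allele. Exe is read here as the group after exercise and Sed as the group before or without it, following the study's design text. The labels give 1 schedule, sessions of 90 min, 2 a day over 4 weeks, for all 10 libraries, Sed included. The sources used here give neither age, sex nor pooling of animals, and nothing says that libraries of a group came from different mice. The p-values therefore describe the spread among the sequenced libraries alone, and that spread may be technical.

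The miR-26 family works as other miRNAs do. A hairpin transcript is cut into a 5p and a 3p arm, one of which is usually kept by the Argonaute protein while the other is mostly degraded. The kept arm pairs through its seed, bases 2 to 8, with target mRNAs and represses them. In human adipocyte progenitors miR-26a rises during differentiation and favours the brown-like programme through repression of the sheddase ADAM17, and in mice miR-26 acts in adipocyte progenitors on the ubiquitin ligase subunit Fbxl19. The hairpins lie inside genes of the CTDSP phosphatases.

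The mature sequences show what the read counts can and cannot separate. They are shown 5′ to 3′ with the seed in capitals, from RefSeq (build GRCm38.p6), which held all 3 members and both other arms of these hairpins. The first 3 are the members, and the last 2 are the 3p arms of the other hairpins, shown because their seeds and reads are compared further on.
miR-26a-5p: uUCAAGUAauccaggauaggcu
miR-26b-5p: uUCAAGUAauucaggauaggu
miR-26a-2-3p: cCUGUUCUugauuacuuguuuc
miR-26a-1-3p: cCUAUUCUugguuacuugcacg
miR-26b-3p: cCUGUUCUccauuacuuggcuc
The 5p arms share the seed UCAAGUA, which no other of the 1679 mouse mature miRNAs in the RefSeq table has. Over the 21 bases that can be aligned from the 5′ end, 19 were identical, and the differences, counted from 1 at the 5′ end with the miR-26a-5p base first, were C11U and C21U. Both lie outside the seed. The seed of miR-26a-2-3p, CUGUUCU, is that of miR-26b-3p and of 2 further mouse miRNAs, miR-6932-3p and miR-7039-3p, whereas miR-26a-1-3p differs from it inside the seed (G4A).

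The hairpins show where each arm comes from. They are printed with the mature arms in capitals.
Mir26a-1: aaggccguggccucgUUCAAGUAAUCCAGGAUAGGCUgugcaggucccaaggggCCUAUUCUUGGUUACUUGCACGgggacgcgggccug
Mir26a-2: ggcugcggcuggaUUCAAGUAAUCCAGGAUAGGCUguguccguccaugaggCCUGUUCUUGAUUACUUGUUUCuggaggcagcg
Mir26b: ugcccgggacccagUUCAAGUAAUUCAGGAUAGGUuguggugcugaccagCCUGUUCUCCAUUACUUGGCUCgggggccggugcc
Mir26a-1 lies at chr9:119031796-119031885 on the plus strand (GRCm38), in an intron of Ctdspl. Mir26a-2 lies at chr10:126995530-126995613, plus strand, within Ctdsp2, where GENCODE M21 places an exon of a protein-coding transcript over it. Mir26b lies at chr1:74394310-74394394, plus strand, in an intron of Ctdsp1. Both Mir26a hairpins give the same miR-26a-5p, so its reads cannot be assigned to a locus. The 3p arms differ, so miR-26a-2-3p reads mark Mir26a-2 alone. Of the 3 members, the 5p arms are the major arms and miR-26a-2-3p is a minor arm.

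The BAT libraries held 104064 to 172279 miRNA reads and the plasma libraries 1209116 to 1798169. Markers of brown fat (miR-193b-3p, miR-365-3p, miR-455-3p and miR-378a-3p) took 22.9% to 29.8% of miRNA reads in Exe BAT and 6.52% to 22.8% in Sed BAT, with all 4 detected in each BAT library. The lowest share, 6.52%, was that of Sed BAT replicate 2. In plasma, where miR-455-3p was not analysed here, the others took 0.0265% to 0.149% in Exe and 0.157% to 0.5% in Sed. miR-193b-3p was at 0 in both Exe plasma libraries, and miR-365-3p in Exe plasma replicate 2 and Sed plasma replicate 1. Red cell miRNAs (miR-451a, miR-144-3p and miR-486a-5p) took 12.5% to 14.0% in Exe plasma and 52.8% to 70.0% in Sed plasma, which leaves a smaller part of the Sed plasma reads to all other miRNAs. miR-144-3p was at 0 in Sed plasma replicate 1. In BAT they took 3.45% to 7.13% in Exe and 3.44% to 6.16% in Sed. Skeletal muscle miRNAs (miR-1a-3p, miR-133a-3p and miR-206-3p) took 2.43% to 3.47% in Exe BAT and 2.89% to 5.47% in Sed BAT, and leukocyte miRNAs (miR-223-3p, miR-142a-3p and miR-150-5p) 0.749% to 1.11% in Exe BAT and 0.677% to 0.875% in Sed BAT. The liver miRNA miR-122-5p took 3.77% to 3.81% in Exe plasma and 1.82% to 6.21% in Sed plasma, and 0.00697% to 0.0755% in Exe BAT and 0.00345% to 0.00768% in Sed BAT.

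The guide strand miR-26a-5p was among the most abundant miRNAs of BAT vesicles. It had 3654, 4087 and 5295 reads in the Exe BAT libraries and 6522, 4073 and 3134 reads in the Sed BAT libraries. It was the 6th most abundant miRNA in every Exe BAT library, and stood at ranks 6, 8 and 7 in Sed BAT. In plasma it had 21724 and 15492 reads in Exe, at ranks 16 and 20, and 4943 and 17537 reads in Sed, at ranks 23 and 16. Its share of miRNA reads was 2.93% ± 0.308 in Exe BAT and 3.49% ± 0.684 in Sed BAT (SD, n = 3 each), and 1.34% ± 0.650 in Exe plasma and 0.672% ± 0.429 in Sed plasma (SD, n = 2 each). Exe BAT and Sed BAT overlapped, and so did Exe plasma and Sed plasma, while every BAT library had a larger share than every plasma library.

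The paralogue miR-26b-5p, with the same seed, was read far less often. It had 179, 225 and 264 reads in Exe BAT and 431, 281 and 205 reads in Sed BAT, at ranks between 46 and 61 of the miRNAs in these libraries. In plasma it had 2513 and 2528 reads in Exe and 345 and 364 reads in Sed. In reads per 1000000 miRNA reads, its level was 1495 ± 67.5 in Exe BAT and 2337 ± 501 in Sed BAT (SD, n = 3 each), and 1755 ± 457 in Exe plasma and 230 ± 38.7 in Sed plasma (SD, n = 2 each). Exe plasma lay between both BAT groups and overlapped each of them, while both Sed plasma libraries lay below every other library.

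The minor arm miR-26a-2-3p was rare in BAT and was not detected in plasma. It had 25, 25 and 18 reads in Exe BAT and 9, 4 and 3 reads in Sed BAT. All 3 Exe libraries lay above all 3 Sed libraries, on reads as on reads per 1000000 miRNA reads (159 ± 55.0 in Exe and 39.1 ± 13.7 in Sed, SD, n = 3 each). Such separation was common: 21.1% of the 199 miRNAs tested in BAT had scaled values higher in every Exe library than in any Sed library. In plasma it had 0 reads in each of the 4 libraries. miR-26a-1-3p was not analysed here in plasma.

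**Figure D1:**
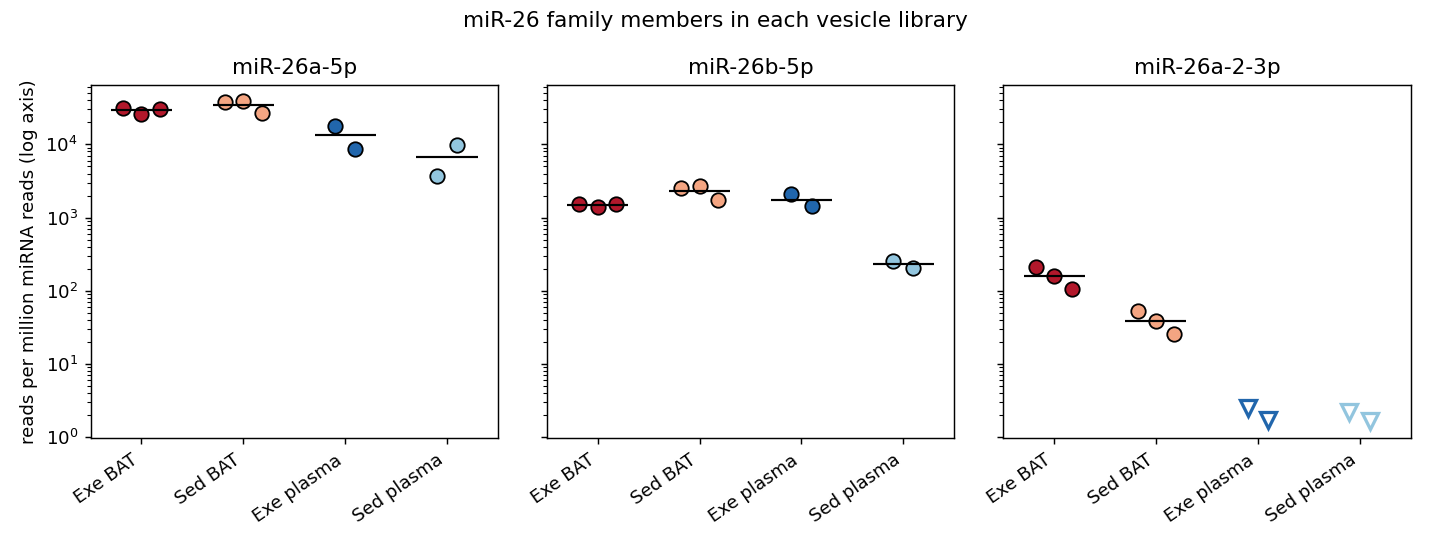
Reads per 1000000 miRNA reads (log axis) of miR-26a-5p, miR-26b-5p and miR-26a-2-3p in each library of the 4 groups, with the group mean as a line. Open triangles mark libraries with 0 reads, drawn at the level that 3 reads would give. The Exe BAT values of miR-26a-2-3p lie above all Sed BAT values, and those of miR-26a-5p overlap.

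The first comparison asked how the vesicles of brown fat differed after exercise. Of the 3 members, miR-26a-2-3p rose and neither 5p arm passed the test, edgeR's quasi-likelihood test over 199 miRNAs with Benjamini-Hochberg adjustment at a threshold of 0.05. Over all 199 miRNAs tested, 22.6% passed in either direction, 9.55% with a higher and 13.1% with a lower value in Exe, and the median log2 fold change was -0.06. The 19 higher and 26 lower calls became 26 and 20 with upper-quartile factors, and 25 and 13 with library totals implied by the deposited RPM values. In CPM (counts per 1000000 reads after TMM scaling between libraries), miR-26a-2-3p stood at 164 ± 52.1 in Exe and 38.2 ± 16.6 in Sed (SD, n = 3 each). Its log2 fold change was 2.01 ± 0.43 (SE, edgeR's quasi-likelihood test, adjusted p = 0.0132, higher in 3 of 3 Exe libraries). It passed the filter on low counts through the Exe libraries alone: all 3 of them and 0 of the 3 Sed libraries were past the cutoff, so its presence among the tested miRNAs favoured a difference in that direction.

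Other settings gave log2 fold changes between 1.84 and 2.47 for miR-26a-2-3p, with adjusted p between 0.000621 and 0.0430 (edgeR's quasi-likelihood test, DESeq2 or limma-voom). Where a filter was used its limit holds for these values too, and at a mean of at least 50 counts miR-26a-2-3p was not tested. With no filter, over all 679 miRNAs of the table, the value was 2.03 (adjusted p = 0.000865). Without Sed BAT replicate 2, the library with the lowest share of brown fat markers, the value was 1.93 (adjusted p = 0.00154). The summed share of brown fat markers was also higher in Exe BAT, from 22.9% upward, than in Sed BAT, where it reached 22.8%. These markers did not move together. miR-193b-3p (1.17 ± 0.29) and miR-455-3p (1.57 ± 0.44) rose, each ± SE. miR-378a-3p, which had the most reads among them, did not pass (0.73 ± 0.62, adjusted p = 0.414, edgeR's quasi-likelihood test). miR-365-3p went the other way without passing (-1.08 ± 0.35, adjusted p = 0.0547, edgeR's quasi-likelihood test). The part of these markers in the rise of miR-26a-2-3p was not tested. Some miRNAs taken here as markers of other tissues moved as well, although nothing here shows that they came from those tissues alone. The liver miRNA miR-122-5p rose, with 88, 30 and 12 reads in Exe BAT and 13, 5 and 4 reads in Sed BAT (log2 fold change 2.62 ± 0.82, SE, edgeR's quasi-likelihood test, adjusted p = 0.0493). miR-122-5p also passed with DESeq2 (2.74, adjusted p = 0.00214) but not with limma-voom (1.97, adjusted p = 0.168). Within each group its reads fell in the same order of libraries as the level of miR-26a-2-3p, although its CPM overlapped between the groups. Without Exe BAT replicate 1, the library with most miR-122-5p, miR-26a-2-3p stood at 1.84 (adjusted p = 0.0430). The muscle miRNA miR-1a-3p (-1.47 ± 0.30, adjusted p = 0.0107) and the leukocyte miRNA miR-142a-3p (-1.19 ± 0.28, adjusted p = 0.0154) fell, while miR-133a-3p, miR-206-3p, miR-223-3p, miR-150-5p and the 3 red cell miRNAs did not pass. Their part in the values of miR-26a-2-3p was not tested. In bulk vesicle RNA, more vesicles from one kind of cell and more of a miRNA per vesicle cannot be told apart.

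The 5p arm that Mir26a-1 and Mir26a-2 share did not pass, and what Mir26a-2 alone gave of it cannot be told apart. miR-26a-5p stood at 30494 ± 3583 CPM in Exe BAT and 33513 ± 7041 CPM in Sed BAT, with overlapping groups (log2 fold change -0.14 ± 0.26, SE, adjusted p = 0.740). Its sign was not stable. The value was 0.03 with upper-quartile factors and 0.04 with the RPM totals, which also moved the median of all 199 miRNAs, to 0.08 and 0.13. It was 0.06 without Sed BAT replicate 1, the library with the most miR-26a-5p reads.

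The Exe BAT libraries had less miR-26b-5p than the Sed BAT libraries without passing the test. It stood at 1557 ± 101 CPM in Exe and 2238 ± 457 CPM in Sed (log2 fold change -0.52 ± 0.24, SE, adjusted p = 0.130, lower in 3 of 3 Exe libraries). Exe libraries ranged from 1456 to 1659 CPM and Sed libraries from 1862 to 2746 CPM, so the groups did not overlap. Non-overlap of this kind was common: 44.2% of the 199 miRNAs had groups that did not overlap, against 2 of the 3 members. Non-overlapping values were higher in Exe for 21.1% of the 199 miRNAs and lower for 23.1%. The value of miR-26b-5p stayed below 0 under every alternative, from -0.64 to -0.34, and passed in none of them.

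Set against miR-26a-5p within each library, where no scaling between libraries enters, the minor arm took a larger share in all 3 Exe libraries. miR-26a-2-3p made up 0.680%, 0.608% and 0.339% of the reads of both arms in Exe BAT and 0.138%, 0.0981% and 0.0956% in Sed BAT. The exact 95% counting intervals of Exe replicates 1 and 2, whose lower bounds were 0.440% and 0.394%, lay above those of all 3 Sed libraries, which reached 0.279% at most. That of Exe replicate 3 (0.201% to 0.535%) overlapped them. The log2 ratio of the arms averaged -7.55 ± 0.54 in Exe and -9.68 ± 0.23 in Sed (SD, n = 3 each), a difference of 2.13, or 4.39-fold. The exact two-sided permutation test gave p = 0.1, the smallest that 3 against 3 libraries allow.

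The 3p arms of the other miR-26 hairpins, too rare to pass the filter, were set beside it. miR-26a-1-3p, the arm specific to Mir26a-1, had 3, 2 and 1 reads in Exe BAT and 0 in each Sed BAT library. The 0 reads of the Sed libraries together allow a share of up to 0.0219% of both arms, against 0.0460% measured over the Exe libraries. Summed over libraries, Mir26a-2 thus gave 68 reads of its 3p arm and Mir26a-1 gave 6 in Exe BAT, against 16 and 0 in Sed BAT. miR-26b-3p had 6, 5 and 3 reads in Exe BAT and 4, 2 and 1 reads in Sed BAT, which was 3.24%, 2.17% and 1.12% of both miR-26b arms in Exe and 0.920%, 0.707% and 0.485% in Sed. The measured shares of miR-26a-2-3p and miR-26b-3p were therefore larger in every Exe library than in any Sed library. For miR-26a-1-3p the 0 reads of single Sed libraries allow shares of up to 0.0460%, 0.0737% and 0.0957%, and the highest Exe share, 0.0820%, lies below the last of these. For miR-26a-1-3p and miR-26b-3p the exact 95% counting intervals of Exe and Sed libraries overlapped, and no test was made.

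**Figure D2:**
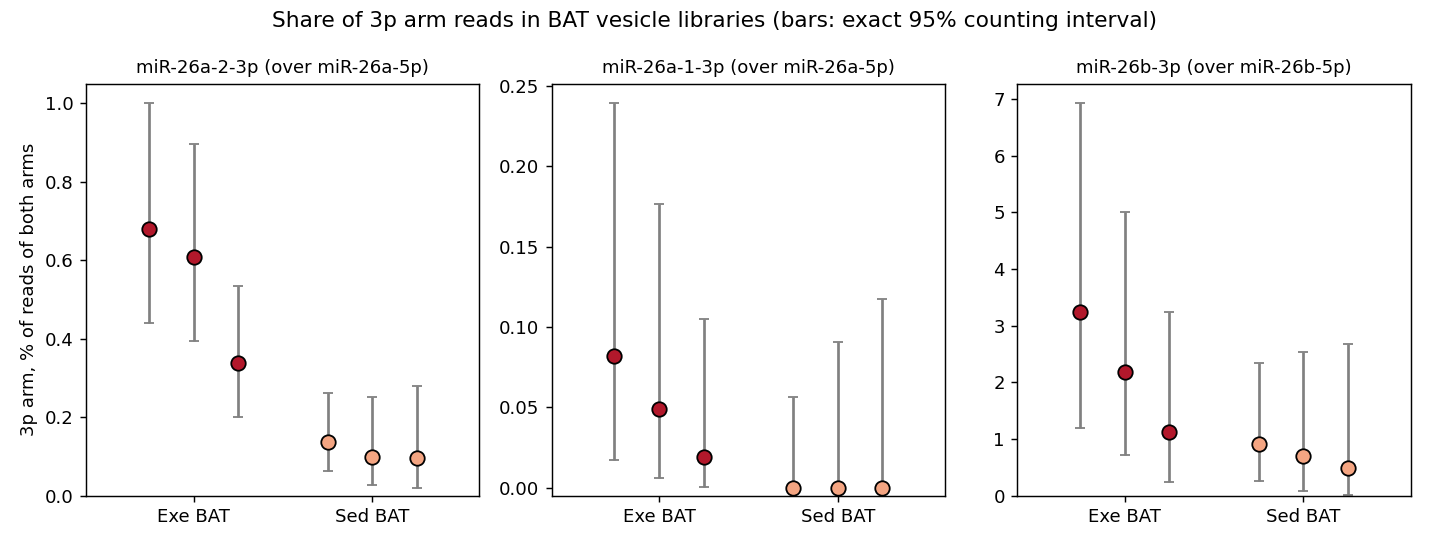
Reads of each miR-26 3p arm as a percentage of the reads of both arms in the 3 Exe BAT and 3 Sed BAT libraries, with exact 95% counting intervals, which cover counting error only. The share of miR-26a-2-3p lies between 0.339% and 0.680% in Exe and between 0.0956% and 0.138% in Sed.

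The miR-26 hairpins were then placed among all hairpins of BAT vesicles. For 34 pairs of arms both arms passed the filter, and the log2 ratio of the arm with fewer reads to the arm with more was compared between Exe and Sed. The median difference over the 34 pairs was 0.32, with 20 values above 0 and 14 below. The difference for miR-26a-2-3p was the third highest. Above it were let-7c-2-3p over let-7c-5p (3.74) and let-7a-1-3p over let-7a-5p (3.24), whose 3p values are identical in every library, so that 1 set of reads may stand under both names. In those 2 pairs the major arm fell (log2 fold changes of -1.61 ± 0.32 for let-7c-5p and -1.10 ± 0.26 for let-7a-5p), whereas miR-26a-5p did not pass. The ratio did not overlap between Exe and Sed, with higher values in Exe, for 26.5% of the pairs, miR-26a-2-3p among them, and with lower values for 11.8%. The median rested in part on Sed BAT replicate 1, without which it was 0.03, and on Exe BAT replicate 1, without which it was 0.13.

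Of 34 minor arms, 7 rose and 2 fell, while 1 of 32 major arms rose and 4 fell. Over all 199 miRNAs, 9.55% passed with a higher and 13.1% with a lower value. The let-7 arms count separately among the 7, although 1 set of reads may stand under both names. Beside miR-26a-2-3p and both let-7 arms, at log2 fold changes of 2.01 each, the arms that rose were miR-425-3p (1.13 ± 0.26), miR-193a-5p (1.43 ± 0.34), miR-455-3p (1.57 ± 0.44) and miR-30c-1-3p (1.94 ± 0.43), each ± SE. The falls were those of miR-24-1-5p (-1.72 ± 0.45) and miR-486b-3p (-1.13 ± 0.36). The median log2 fold change was 0.35 for the minor arms and -0.13 for the major arms. Minor arms are rare, and one that passes the filter through a single group, as miR-26a-2-3p did, had to differ in that direction, so these counts are a description only.

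With pairs chosen by a mean of at least 50 reads over both arms, 99 pairs could be compared. This choice asks of the minor arm only that it have a read in some BAT library, so arms read in Exe alone also enter. The median was 0.33, with 66 values above 0 and 33 below. Ratios did not overlap, with higher values in Exe, for 22.2% of these pairs, and 6.06% had non-overlapping lower values. The pairs of miR-26a-2-3p and miR-26b-3p were among those with higher values. The difference was 2.13 for miR-26a-2-3p, rank 13 of 99, and 1.37 for miR-26b-3p, rank 20. None is given for miR-26a-1-3p, whose Sed libraries were all at 0 reads, so that its ratio there is set by the 0.5 reads added. Other pairs of the 99 also had an arm at 0 in Sed, and the shares and ranks include them.

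**Figure D3:**
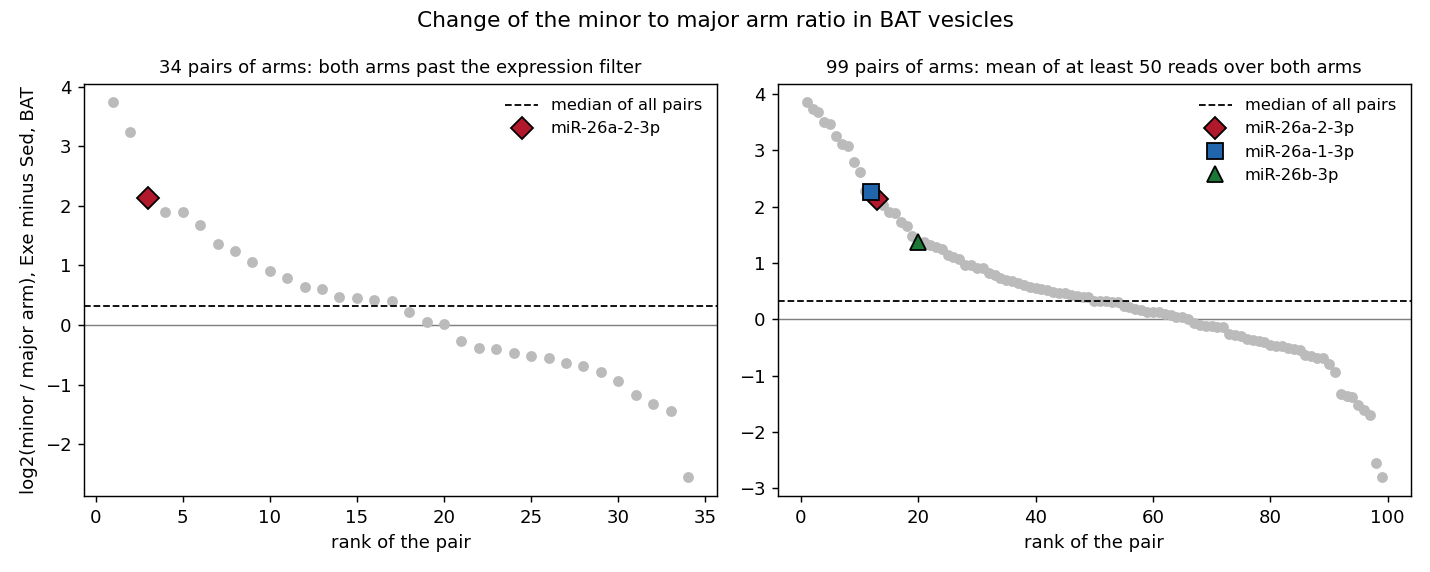
Difference between Exe and Sed in the mean log2 ratio of minor to major arm in BAT vesicles, ranked over 34 pairs that pass the filter (left) and 99 pairs with a mean of at least 50 reads (right), with the median as a dashed line. The point of miR-26a-1-3p is set by the 0.5 reads added to its Sed libraries, and miR-26a-2-3p stands at 2.13 against medians of 0.32 and 0.33.

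The balance between the 5p paralogues was compared in the same way. miR-26b-5p made up 4.67%, 5.22% and 4.75% of the miR-26a-5p and miR-26b-5p reads in Exe BAT, and 6.20%, 6.45% and 6.14% in Sed BAT. The 3 Exe values lay below all Sed values. The means were 4.88% ± 0.296 in Exe and 6.26% ± 0.167 in Sed (SD, n = 3 each), a difference of -1.39 percentage points with an exact two-sided permutation p = 0.1, the smallest possible. With 1 library left out the difference ranged from -1.55 to -1.28.

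The second comparison put the same question to plasma vesicles, where 0 of the 2 members tested passed. None of the 182 miRNAs (0%) was called by the quasi-likelihood test of edgeR, although 60 had an unadjusted p below 0.05. DESeq2 made 57 calls and limma-voom 40. On the TMM scale of the plasma table miR-26b-5p stood at 1373 ± 33.9 CPM in Exe and 303 ± 137 CPM in Sed (SD, n = 2 each). Its log2 fold change was 2.18 ± 1.32 (SE, adjusted p = 0.297), with values from 1.33 to 2.93 over the alternatives, and it passed in none of them. miR-26a-5p stood at 10170 ± 2693 CPM in Exe and 7817 ± 2954 CPM in Sed (0.38 ± 0.70, adjusted p = 0.714). Its groups overlapped, and with upper-quartile factors its value was -0.60, beside a median of -0.59 over all miRNAs. The groups of miR-26b-5p did not overlap, as was the case for 59.3% of the 182 miRNAs, 28.6% with higher and 30.8% with lower values in Exe.

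Within each plasma library, miR-26b-5p made up 10.4% and 14.0% of the 5p reads of both paralogues in Exe and 6.52% and 2.03% in Sed. Both Exe values lay above both Sed values, and the means were 12.2% ± 2.59 in Exe and 4.28% ± 3.18 in Sed (SD, n = 2 each). The exact two-sided permutation test gave p = 0.333, the smallest that 2 against 2 libraries allow. The second whole number that the plasma table holds beside each read count gave 11.7% and 15.2% in Exe and 8.04% and 3.60% in Sed. The Sed plasma libraries differed more from each other in this share than the BAT libraries did among all 6. Between Exe and Sed plasma the share of red cell miRNAs also differed, as given above. Leukocyte miRNAs took 1.95% to 2.23% in Exe plasma and 0.156% to 0.211% in Sed plasma. Among them, miR-142a-3p was at 0 in Exe plasma replicate 2 and Sed plasma replicate 1, and miR-223-3p in the latter. Skeletal muscle miRNAs took 0.480% to 0.627% in Exe plasma and 0.150% to 0.530% in Sed plasma. The part of these shares in the differences of miR-26b-5p was not tested.

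**Figure D4:**
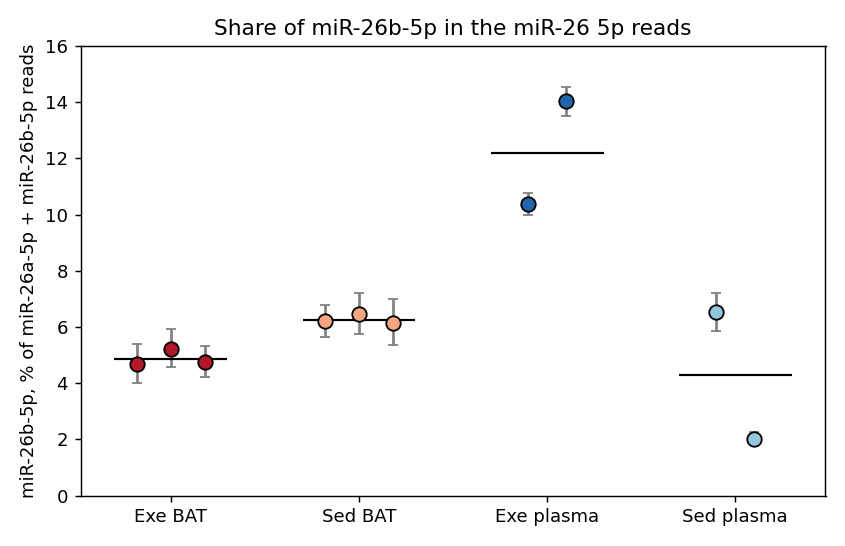
miR-26b-5p reads as a percentage of miR-26a-5p plus miR-26b-5p reads in each of the 10 libraries, with exact 95% counting intervals and group means. Exe values lie below Sed values in BAT (4.67% to 5.22% and 6.14% to 6.45%) and above them in plasma (10.4% to 14.0% and 2.03% to 6.52%).

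Whether the exercise effect differed between the vesicle sources was tested in a joint edgeR fit of all 10 libraries over 234 miRNAs listed in both tables. Source, table and any sequencing run cannot be told apart in this fit. For miR-26b-5p the effect in BAT minus that in plasma was -2.42 ± 0.85 on the log2 scale (SE, edgeR's quasi-likelihood test, adjusted p = 0.0562). It did not pass, while it did with DESeq2 (-1.98, adjusted p = 0.00355), with library size alone (-3.57) and without the 3 most abundant miRNAs (-2.54), with adjusted p from 0.00355 to 0.200 over all alternatives. For miR-26a-5p the difference was -0.07 ± 0.75 (adjusted p = 0.965). Of all 234 miRNAs 29.1% passed, 16.7% with a higher and 12.4% with a lower value, against 0 of the 2 members with reads in both sources. The difference could not be estimated for miR-26a-2-3p, which had no plasma reads.

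BAT and plasma vesicles were compared in the same fit, where 66.7% of the 234 miRNAs passed in Exe, 41% with a higher and 25.6% with a lower value in BAT. In Sed 42.3% passed, 22.2% with a higher and 20.1% with a lower value. miR-26b-5p was lower in Exe BAT than in Exe plasma (log2 fold change -1.68 ± 0.59, SE, edgeR's quasi-likelihood test, adjusted p = 0.0260, 1 of 2 members with reads in both sources). That call was lost with upper-quartile factors (-0.45), with library size alone (-0.21) and at a mean of at least 50 counts (-0.44), and without any of the 3 Exe BAT libraries (-1.68, -1.61 and -1.38), Sed BAT replicate 1 (-1.63) or 3 (-1.58), or Exe plasma replicate 1 (-1.17). Over all its alternatives the adjusted p ranged from 0.00711 to 0.731. In Sed miR-26b-5p stood at 0.73 ± 0.61 (adjusted p = 0.330) and passed with DESeq2 (0.99), library size alone (3.36) and a mean of at least 50 counts (1.54). miR-26a-5p did not pass in either comparison, with -0.34 ± 0.53 in Exe (adjusted p = 0.596) and -0.27 ± 0.53 in Sed (adjusted p = 0.689). Its sign changed with the scaling, the filter and single libraries. Library size alone gave 1.15 in Exe and 2.39 in Sed, and also moved the median of all 234 miRNAs to 2.43 in Exe and 3.84 in Sed, against 0.90 and 1.21 with TMM. No direction between the sources is therefore given for miR-26a-5p.

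With 0 reads in plasma, a floor of 3 reads over each group was used. Each bound below holds only if plasma reads are taken as independent. Per miRNA read, miR-26a-2-3p was at least 151-fold higher in Exe BAT (152 per 1000000) than in Exe plasma (up to 1.01 per 1000000), and at least 43.0-fold higher in Sed BAT than in Sed plasma. Relative to miR-26a-5p, which plasma held in abundance, the 3p share was 0.519% over the Exe BAT libraries and at most 0.00806% over the Exe plasma libraries, at least 64.4-fold higher in BAT. In Sed it was 0.116% in BAT and at most 0.0133% in plasma, at least 8.72-fold higher in BAT. No test is given, since with 0 plasma reads it could pass the filter of the joint fit through BAT alone. The folds take the BAT reads as exact, and source and table cannot be told apart. Reads per unit of the second plasma value were 1.41 and 1.64 in Exe plasma and 3.31 and 21.4 in Sed plasma. For miR-26a-5p they were 1.66 and 9.92 in Sed plasma. A floor of 3 on the second values would therefore give smaller folds, most of all in Sed. With library size alone, a scaling like that of the per-read folds, the median miRNA was also higher in BAT, as given above. Despite their greater depth, the plasma libraries had reads of only 197 to 296 miRNAs, against 420 to 470 in the BAT libraries. Another minor arm, miR-26b-3p, had 0 reads in Exe plasma replicate 1 and 340 in Exe plasma replicate 2, a spread that a floor of 3 reads does not cover. The part of both patterns in the 0 plasma reads of miR-26a-2-3p was not tested.

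Likeness of pattern was described by Pearson's r of log2 CPM over the 6 BAT libraries, among the 198 other tested miRNAs and with no test, since the 6 libraries share their scaling and differ in depth. The group means were not removed, so r in part restates the differences between Exe and Sed given above. Nearest to miR-26a-5p were miR-221-3p (r = 0.94), miR-140-5p (0.91) and miR-199a-5p (0.88), all miRNAs without a call in BAT. Nearest to miR-26b-5p were miR-20a-5p (0.96), miR-499-5p (0.93) and miR-381-3p (0.91), of which miR-381-3p fell. Nearest to miR-26a-2-3p were miR-320-3p (0.94) and both let-7 arms named above (0.94 each), all of which rose. Among the members, r was 0.77 between the 5p arms, -0.10 between miR-26a-2-3p and miR-26a-5p, and -0.65 between miR-26a-2-3p and miR-26b-5p. Over all 10 libraries, the r of the 5p arms was 0.25. There miR-26a-5p was nearest to miR-423-3p (0.85), miR-379-5p (0.75) and miR-1843a-5p (0.70), and miR-26b-5p to miR-574-3p (0.94), miR-574-5p (0.92) and miR-486b-3p (0.92).

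Other miRNAs tied to brown or beige fat formation in rodent or human cells were set beside the family. Of 13 listed as promoting it, which include all 4 brown fat markers, 11 were tested in BAT vesicles, of which 3 rose and 1 fell, beside 9.55% of all miRNAs with a higher and 13.1% with a lower value, with a median log2 fold change of 0.55 against -0.06 over all tested. The rises were miR-328-3p (1.26 ± 0.24), miR-455-3p (1.57 ± 0.44) and miR-193b-3p (1.17 ± 0.29), a miRNA required for brown fat differentiation in cultured mouse cells, and the fall was miR-32-5p (-1.35 ± 0.36). Of 12 listed as restraining it, all were tested, 2 fell and none rose, with a median of 0.05. A share of 2 in 12 is near the 13.1% of all miRNAs that fell. The falls were miR-34a-5p (-1.05 ± 0.20) and let-7i-5p (-1.01 ± 0.23), and miR-93-5p stood at 0.55 ± 0.25 (adjusted p = 0.132). In plasma 0 of the 8 tested promoting and 0 of the 8 tested restraining miRNAs passed in edgeR's quasi-likelihood test. As it called 0 of all 182 miRNAs there, these counts say nothing about the lists. The plasma medians were -4.20 for the promoting and -0.31 for the restraining miRNAs, against 0.32 over all tested. DESeq2 called members of both lists, in both directions among the promoting ones. Of the list members tested in plasma, miR-34a-5p had the smallest p in edgeR's test, at -3.63 ± 0.76 (adjusted p = 0.0899).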

How the data were processed

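Small RNA libraries of BAT and plasma vesicles were made from Trizol-extracted RNA with Illumina protocols, per the labels. Each of the deposited tables, 1 per source, gives for every library a read count of each mature miRNA. The submitters' processing notes name Bowtie 0.12.2 and the builds mm8 and mm9 and state no role for them. Counting, miRNA release and filters: not given in the sources used here. Deposited RPM values of BAT equalled the read count over 1 total per library, within 0.01, and these totals were 18.9 to 21.2 times 1000000 reads. The miRNA reads were 0.492% (Sed BAT replicate 2) to 0.904% (Exe BAT replicate 3) of them. Which reads the totals count is not stated. For plasma the deposited table holds a second whole number, treated as a score of unstated making, never above the read count and used only in alternatives.

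Counts were tested with edgeR 4.0.16 (quasi-likelihood, TMM, filterByExpr with a minimum of 10, robust dispersions) in R 4.3.3, with Benjamini-Hochberg adjustment over all miRNAs tested and a threshold of 0.05. The SE is the log2 fold change over the square root of F. The procedure was also run on simulated counts with a single common dispersion per source. Those counts lack the shift in red cell share between the plasma groups, so the run cannot vouch for the plasma results. DESeq2 1.42.0 and limma 3.58.1 served as alternatives, with other scalings and filters, a replicate block and each library left out. Arm ratios used a pseudocount of 0.5 reads. Shares have exact (Clopper-Pearson) 95% intervals. PCR copies are not independent molecules, so intervals and floors reflect counting error alone. Permutation tests ran in scipy 1.17.1 under Python 3.11.15, and plots in matplotlib 3.10.9. Sequences came from RefSeq (GRCm38.p6) and host genes from GENCODE M21.

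The members, lists and tests were chosen with earlier results of these data known. The rule for named miRNAs took the members, the other arms of their hairpins, the 3 nearest in pattern, minor arms called in BAT with the 3 largest ratio changes, list members called in BAT with the 3 of smallest p, and tissue markers.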

Additional observations from a re-analysis of the deposited data

Results flagged for a closer look

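The log2 ratio of miR-26b-5p to miR-26a-5p lay on opposite sides of Sed in the 2 sources. Exe minus Sed was -0.38 in BAT and 1.85 in plasma, so that BAT minus plasma was -2.23. Every Exe library lay below every Sed library in BAT and above it in plasma. An exact two-sided permutation of Exe and Sed labels within each source, over 120 arrangements, gave p = 0.0167, the smallest these arrangements can give. Its null is no effect in either source, and it was chosen after the complete separation was seen, so that this p restates the separation and is no test of a difference between sources. Within each source the share of miR-26b-5p gave exact p = 0.1 in BAT and 0.333 in plasma, and in the joint fit of all libraries the difference of effects did not pass for miR-26b-5p (adjusted p = 0.0562, edgeR's quasi-likelihood test). The second plasma values gave -1.81 with the same p. With 1 library left out the difference ranged from -3.11 to -1.36, and the p was above 0.05 without Exe plasma replicate 1 (-2.48, p = 0.1, exact) or Exe plasma replicate 2 (-1.98, p = 0.283, exact).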

How the results depend on the processing

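In BAT, miR-26b-5p kept its direction and stayed short of the threshold under each alternative. miR-26a-2-3p stayed past it, also with no filter (2.03), and was not tested at a mean of at least 50 counts. The log2 fold change of miR-26a-5p reversed to 0.027 with upper-quartile factors, 0.012 at a mean of at least 50 counts and 0.037 with RPM totals, and ranged from -0.19 to 0.056 with 1 library left out. The 45 calls in BAT became 21 at a mean of at least 50 counts, and 16 to 56 with 1 library left out (22, 28 and 16 without Exe BAT replicates 1, 2 and 3). With the replicate number as a block, the calls were 25 in BAT, 7 in plasma and 45 for the difference of effects. Deviations from the group mean correlated at 0.0042, -0.083 and -0.12 for same-numbered BAT libraries, and from -0.044 to 0.17 for differently numbered ones. Being centred within small groups, these deviations can neither show nor exclude a pairing by number. The block changed no member's call.

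In plasma the calls, 0 in the quasi-likelihood test, were 57 with DESeq2, 40 with limma-voom, 4 with upper-quartile factors, 10 with library size alone, 1 without the 3 most abundant miRNAs, 17 without a filter, 29 at a mean of at least 50 counts, 7 with the second values (limma on log2 values) and 3 to 27 with 1 library left out. There upper-quartile factors turned miR-26a-5p to -0.60, and leaving out 1 library gave 0.11 to 1.24.

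For the difference of effects, the 68 calls ranged from 36 to 119 with 1 library left out, with 36 to 42 without any 1 BAT library and 119 without Exe plasma replicate 1. miR-26b-5p passed with DESeq2 (-1.98), library size alone (-3.57) and without the 3 most abundant miRNAs (-2.54), ranging from -2.75 to -1.92 with 1 library left out, where it passed without Sed plasma replicate 1 (-2.47), Sed plasma replicate 2 (-2.35) or Exe plasma replicate 2 (-2.48). miR-26a-5p reversed with DESeq2 (0.13) and upper-quartile factors (1.05), and ranged from -1.07 to 0.75.

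For BAT against plasma in Exe, the 156 calls became 82 at a mean of at least 50 counts. miR-26b-5p lost its call there (-0.44), with upper-quartile factors (-0.45) and with library size alone (-0.21), and ranged from -1.85 to -1.17 with 1 library left out. miR-26a-5p reversed with DESeq2 (0.39), upper-quartile factors (0.96), library size alone (1.15) and at 50 counts (0.92), and ranged from -0.49 to 0.51. In Sed, the 99 calls became 150 with DESeq2 and 152 with library size alone, and 77 to 149 with 1 library left out. miR-26b-5p passed with DESeq2 (0.99), library size alone (3.36) and at 50 counts (1.54), and miR-26a-5p reversed with these (0.25, 2.39 and 0.73) and ranged from -0.79 to 0.89. The cause of these changes was not tested.

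The share of miR-26b-5p in BAT minus plasma was -2.67 percentage points (5.57% ± 0.789, n = 6, and 8.24% ± 5.15, n = 4, exact permutation p = 0.229), from -4.74 to -0.74 with 1 library left out and -4.06 with the second plasma values. The Exe minus Sed share in plasma ranged from 5.67 to 10.2, and the log2 arm ratio difference in BAT from 1.94 to 2.44, or 2.03 with 1 read added to both arms. The median arm ratio change over 34 pairs ranged from 0.034 to 0.41, and the difference of the log2 ratio of miR-26b-5p to miR-26a-5p between sources from -3.11 to -1.36. Depth limits the 3p arms, which had 0 to 9 reads in each Sed BAT library.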

Other observations

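In plasma, miR-26b-3p had 0 and 340 reads in Exe and 0 reads in both Sed libraries, so that a single library, Exe plasma replicate 2, held every plasma read of this arm, 11.9% of its miR-26b reads (exact 95% counting interval 10.7% to 13.1%). Exe plasma replicate 1, with 2513 reads of miR-26b-5p, allows a share of up to 0.119%. The second whole number of the table for this arm was 339 in Exe plasma replicate 2.

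Reads per unit of the second plasma value differed between libraries. Over all miRNAs the quotient was 1.41 and 1.64 in Exe plasma and 3.31 and 21.4 in Sed plasma. For miR-26a-5p it was 1.17 and 1.12 in Exe and 1.66 and 9.92 in Sed, and for miR-26b-5p 1.03 and 1.02 in Exe and 1.32 and 5.52 in Sed.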
